A study of Mus musculus with 12 samples.

Results

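The 8 genes described here make, degrade or bind hyaluronan. They are the hyaluronan synthases Has1, Has2 and Has3, the hyaluronidases Hyal1 and Hyal2, the receptor Cd44, and Tnfaip6 and Vcan, whose products TSG-6 and versican bind hyaluronan in the matrix. They were taken by name from 49315 gene identifiers in the count tables, all 8 were found once, and all 8 passed the filter on low counts that left 17416 genes to test. RNA was sequenced from primary fibroblasts of adult mice (MAFs), isolated from the ears of females that were either C57BL6/J (WT) or Bmal1-/- (KO). Senescent MAFs had received 20 Gy of X-rays and control MAFs a sham exposure, and both were grown at 3% oxygen, given 100 nM dexamethasone for 2 h and collected 12 h later. Irradiated MAFs were cultured for weeks after the X-rays, and no such time is stated for control MAFs. Time in culture therefore cannot be told apart from senescence. Each of the 4 groups (control and senescent MAFs of either genotype) held 3 libraries. The sources do not say whether the 3 libraries of a group came from separate cultures or mice, so p-values measure the spread between these libraries only, which may be technical.

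Hyaluronan is a long unsulphated sugar chain that HAS enzymes assemble at the plasma membrane from UDP-glucuronic acid and UDP-N-acetylglucosamine and extrude into the matrix. HAS2 is usually the main synthase of fibroblasts. Chains are cut by hyaluronidases at the cell surface and in lysosomes, are bound by CD44 on the cell surface, and are cross-linked by proteins such as versican and TSG-6 into the pericellular coat.

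The study concerned BMAL1, a clock transcription factor that binds E-boxes, and AP-1, so the promoter windows of the members in RefSeq (GRCm38.p6, 250 bases before to 50 bases after the annotated start) were searched on both strands for the E-box CACGTG and the AP-1 words TGACTCA and TGAGTCA. Windows were found for 6 of the 8 members, all but Has2 and Has3. No window of the 6 held CACGTG, which 7.15% of all 32817 windows held. Tnfaip6 alone held an AP-1 word, TGAGTCA at bases -142 to -136 from its RefSeq start (chromosome 2, 52038113), and 5.20% of all windows held such a word. The gene annotation used for the exons starts Tnfaip6 further upstream, at 52038009, so the stretch printed here ends before that base and the word lies closer to its end than those positions say. A match is a description of letters and not a measurement of binding. The stretches before the first exon in that annotation of Hyal1 and Tnfaip6 are shown because these members changed in opposite directions with senescence in both genotypes. Hyal1 is from chr9:107576700-107576926 and Tnfaip6 from chr2:52037863-52038008, both on the plus strand, and capitals mark the AP-1 word.
Hyal1: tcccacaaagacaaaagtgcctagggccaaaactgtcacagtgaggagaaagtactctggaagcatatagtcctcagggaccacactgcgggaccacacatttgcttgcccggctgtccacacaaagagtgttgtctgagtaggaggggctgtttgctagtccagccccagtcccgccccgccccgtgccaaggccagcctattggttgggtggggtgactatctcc
Tnfaip6: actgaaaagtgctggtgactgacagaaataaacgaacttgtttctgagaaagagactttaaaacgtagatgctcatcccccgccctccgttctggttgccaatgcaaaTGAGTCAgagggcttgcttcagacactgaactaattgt

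Total counts ran from 23923030 to 31736083 per library, and 3 counts, the detection floor used here, equalled 0.0945 to 0.125 CPM (counts of a gene per 1e6 counts of its library), a limit that covers counting error only. Arntl, the gene of BMAL1, had 31.5 ± 1.71 CPM in control and 36.1 ± 1.10 in senescent WT cells, and 13.2 ± 1.82 and 26.6 ± 1.13 CPM in those of the KO (SD, n = 3), and the part of the gene deleted in the KO is not given in the sources used here, so these counts may include exons outside it. Of genes looked at to check the senescence labels, Cdkn1a rose (log2 1.92 in WT and 1.63 in KO) and Lmnb1 fell (-3.20 and -3.30). Cdkn2a rose in KO (1.26, adjusted p = 5.05e-05) and not in WT (-0.11, adjusted p = 0.723). The responses of Cdkn2a differed by 1.36 (adjusted p = 0.00473), so the senescent groups were not alike in this marker. All 9 fibroblast markers lay above the floor in every library, and their summed level was 20004 to 20813 CPM in WT control, 9836 to 10243 in WT senescent, 24956 to 26321 in KO control and 11723 to 12141 in KO senescent cells. Single genes of that list moved both ways with senescence: 5 passed higher and 4 lower in WT, and 3 higher and 5 lower in KO. Over all genes, to be set beside this and the marker lists below, 29.2% passed higher and 27.0% lower in WT, and 28.5% and 28.6% in KO. A list of 9 chondrocyte markers, which ear tissue can also supply, summed to 8787 to 10866, 2739 to 3179, 5985 to 8313 and 915 to 1123 CPM in the same order, with Matn1 at 0 counts in all 3 WT control libraries and at 0 to 1 in those of KO control. Of its 8 genes tested, 7 passed lower with senescence in each genotype. The remaining gene, Comp, passed higher in WT (log2 0.59, adjusted p = 0.0117) and did not pass in KO (-0.29, adjusted p = 0.177). Macrophage markers summed to 9.19 to 16.6 CPM over all libraries. Of the 5 tested, 2 passed higher (Lyz2 and Cd68) and 1 lower (Mrc1) with senescence in WT, and 1 higher (Lyz2) in KO. Lyz2 rose 5.39-fold in WT and 14.5-fold in KO, to at most 3.12 CPM. The sum of 7 keratinocyte markers was higher in senescent cells, at 26.8 to 30.3 against 10.4 to 15.9 CPM in WT and 20.2 to 22.6 against 11.6 to 13.7 CPM in KO. Of the 5 keratinocyte markers tested, 4 passed higher in WT, and 4 higher and 1 lower in KO. The largest rise was that of Krt15 (8.71-fold in WT and 13.2-fold in KO). Trp63 passed lower in KO (log2 -1.32, adjusted p = 5.8e-08) and did not pass in WT (0.30, adjusted p = 0.0561), while Krt1 and Krt14 stayed at 0 to 0.336 CPM. The 4 myofibroblast markers summed to 1785 to 2011, 1444 to 1544, 2026 to 2345 and 1964 to 2113 CPM in the order of groups above. All 4 passed higher in KO senescent than in WT senescent cells, beside 11.9% of all genes. Skeletal muscle markers summed to 44.9 to 58.9, 15.1 to 16.1, 23.1 to 33.8 and 16.1 to 24.6 CPM. Adipocyte, melanocyte and endothelial markers summed to 31.5 to 70.7, 6.19 to 13.8 and 1.98 to 8.14 CPM over all libraries. The part of these cells in the senescence or genotype differences was not tested. In bulk RNA, fewer cells of a type and less RNA per cell cannot be told apart. Each genotype was deposited in its own table, so handling and genotype cannot be told apart where KO is set against WT.

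Senescent cells of both genotypes had less Has2 and Tnfaip6 and more Hyal1 mRNA than their controls. In the KO, Cd44 and Has3 were also higher and Vcan lower in senescent cells, and the fall of Has2 was deeper than in WT. KO control cells carried more Has2 and Vcan than WT control cells. Differences were tested with edgeR's quasi-likelihood test, a difference passed where its p, adjusted over all 17416 genes, was under 0.05, and it was called where its log2 fold change was also over 1 in size, the thresholds of the study's methods. In WT, 3 of the 8 members passed, against 56.2% of all genes, with 1 higher (29.2%) and 2 lower (27.0%), and 2 were called, against 17.4%. In KO, 6 of 8 passed, against 57.1% of all genes, with 3 higher (28.5%) and 3 lower (28.6%), and 3 were called, against 18.8%. With 8 members, these shares are not set apart from those of all genes. The interaction, the KO response less the WT response, passed for 3 members, against 20.9% of all genes, with 1 positive (9.24%) and 2 negative (11.7%), and was called for 0, against 3.66%. At an unadjusted p under 0.05 the interaction held for the same 3 members, and DESeq2 and limma-voom also called 0. KO control against WT control cells passed for 2 members, both higher, against 13.0% of all genes (8.07% higher and 4.96% lower). KO senescent against WT senescent cells passed for 3, all higher, against 23.7% (11.9% higher and 11.8% lower). Neither comparison called a member, by edgeR, DESeq2 or limma-voom, against 2.54% and 3.48% of all genes. At an unadjusted p under 0.05, 3 and 5 members held. No share of all genes at an unadjusted p is given here, so these counts and that of the interaction cannot be set beside one. The median log2 fold change of the 8 members was -0.12 in WT, 0.03 in KO, 0.01 in the interaction, 0.10 between controls and 0.32 between senescent cells, beside 0.02, 0.00, -0.03, 0.01 and -0.02 over all genes tested. The CPM ranges of the groups did not overlap for 5 members in WT, 6 in KO, 3 between controls and 5 between senescent cells, beside 63.2%, 61.6%, 25.9% and 42.0% of all genes.

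**Figure D1:**
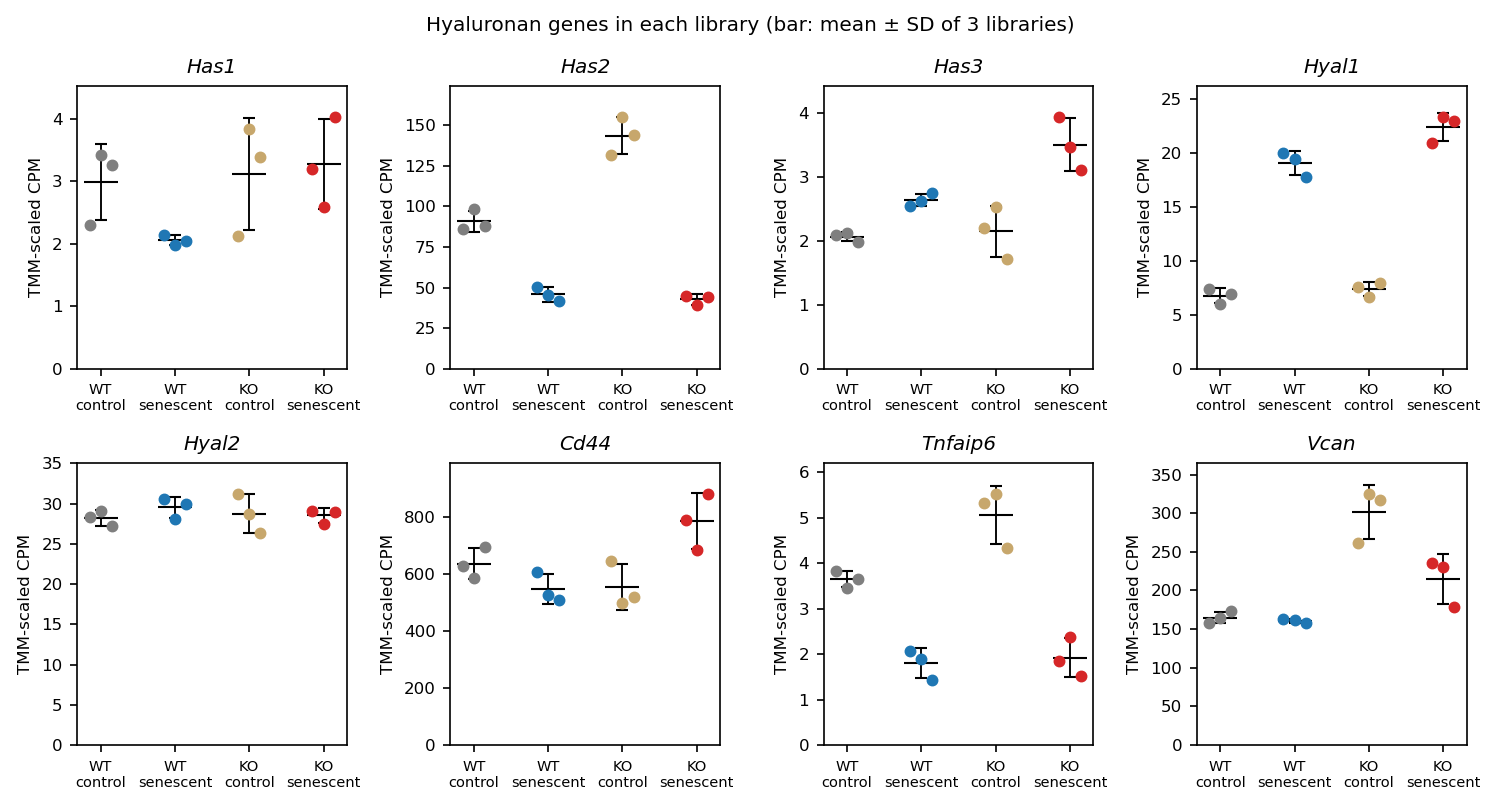
TMM-scaled CPM of the 8 genes (vertical axes from 0, a scale of its own for each gene) in the 12 libraries, with points for libraries and bars for the mean ± SD of 3. Has2 lies at 39.0 to 50.5 CPM in senescent libraries and at 86.0 to 155 CPM in control libraries, Hyal1 shows the opposite order, and Hyal2 stays between 26.3 and 31.2 CPM in all 12.

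Has2 (ENSMUSG00000022367, GRCm38 chromosome 15, 56665627 to 56694539, minus strand) read 86.0, 98.2 and 88.1 CPM in replicates 1 to 3 of the WT controls and 50.5, 45.1 and 41.5 CPM in WT senescent cells. In the KO it read 132, 155 and 144 CPM in control and 44.7, 39.0 and 44.4 CPM in senescent cells. Every senescent library lay below every control library, KO control lay above WT control, and the senescent groups of both genotypes overlapped. Has2 fell by 0.99 on the log2 scale in WT (SE 0.08, adjusted p = 3.18e-09), just inside the fold threshold, and by 1.75 in KO (SE 0.08, adjusted p = 7.15e-13), a 3.37-fold lower level. Without WT control replicate 1, WT control replicate 3 or WT senescent replicate 1 the WT change was -1.03, -1.01 or -1.07 and was called. It was also called with DESeq2 size factors, with the DESeq2 Wald test and with only the groups compared in the fit (-1.02 in the last). The response differed between genotypes by -0.76 (SE 0.11, adjusted p = 0.000124). KO control cells held 1.58-fold more Has2 than WT control cells (log2 0.66, SE 0.08, adjusted p = 6.69e-06), whereas between senescent cells the difference was -0.10 (95% interval -0.27 to 0.07, adjusted p = 0.410). The chondrocyte marker sum given above was also lower in senescent cells of both genotypes. It was 5985 to 8313 CPM in KO control against 8787 to 10866 in WT control cells. In senescent cells it was 915 to 1123 CPM in KO against 2739 to 3179 in WT. The part of these cells in the Has2 differences was not tested. An antisense gene, Has2os, shares 4.3% of the exon bases of Has2 but held only 23 to 49 counts per library.

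Has1 (ENSMUSG00000003665, chromosome 17, 17843323 to 17855205, minus strand) was scarce, with 53 to 119 counts per library. It read 2.29, 3.42 and 3.25 CPM in WT control and 2.14, 1.98 and 2.04 CPM in WT senescent cells. In KO it read 2.12, 3.84 and 3.39 CPM in control and 3.20, 2.59 and 4.02 CPM in senescent cells. The 3 WT senescent libraries were the most alike and lay below all WT control and all KO senescent libraries, whereas the KO groups overlapped. The WT difference of -0.53 (SE 0.24, adjusted p = 0.0671) did not pass, but it did without WT control replicate 1 (-0.70, adjusted p = 0.0304) or KO control replicate 1 (-0.54, adjusted p = 0.0414). The KO difference was 0.07 (95% interval -0.42 to 0.55). KO senescent cells held 1.59-fold more Has1 than WT senescent cells (log2 0.67, SE 0.24, adjusted p = 0.0467). This pass did not hold without any 1 of the 3 WT senescent replicates, KO control replicate 3, KO senescent replicate 1 or KO senescent replicate 3, where adjusted p was 0.0572 to 0.233.

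Has3 (ENSMUSG00000031910, chromosome 8, 106870242 to 106884566, plus strand) was also low, with 40 to 102 counts per library. It read 2.09, 2.12 and 1.98 CPM in WT control and 2.55, 2.62 and 2.74 CPM in WT senescent cells. The KO values were 2.20, 2.52 and 1.72 CPM in control and 3.93, 3.47 and 3.10 CPM in senescent cells. Senescent libraries lay above control libraries in both genotypes, and KO senescent libraries were the highest. The rise passed in KO (log2 0.70, SE 0.20, adjusted p = 0.00504) and not in WT (0.35, SE 0.20, adjusted p = 0.152), and the difference between these responses did not pass (0.34, 95% interval -0.25 to 0.94, adjusted p = 0.433). Its exons share 5.52% of their bases with Chtf8, an opposite-strand gene with 3095 to 4675 counts per library that fell with senescence in both genotypes (-0.51 in WT and -0.31 in KO). The use of strand in counting is not stated, so reads of these genes cannot be told apart there.

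Hyal1 (ENSMUSG00000010051, chromosome 9, 107576927 to 107581710, plus strand), which encodes a lysosomal hyaluronidase, read 7.35, 5.98 and 6.90 CPM in WT control and 20.0, 19.4 and 17.8 CPM in WT senescent cells. KO cells read 7.55, 6.66 and 7.98 CPM in control and 20.9, 23.3 and 23.0 CPM in senescent cells. The control libraries of both genotypes formed 1 low range, and every senescent library lay above it. The rise was 2.83-fold in WT (log2 1.50, SE 0.10, adjusted p = 8.49e-11) and 3.04-fold in KO (log2 1.60, SE 0.10, adjusted p = 1.82e-11), and the responses differed by 0.10 (95% interval -0.20 to 0.41, adjusted p = 0.670). KO senescent cells lay 0.23 above WT senescent cells (SE 0.09, adjusted p = 0.0778), without overlap of the libraries. Naa80, which encodes an actin-modifying acetyltransferase on the same strand, shares 50.83% of the exon bases of Hyal1, and reads in shared exons cannot be given to either gene. Naa80 itself was higher in senescent cells, by 0.90 in WT (SE 0.10, adjusted p = 6.72e-08) and 0.74 in KO (SE 0.09, adjusted p = 9.49e-07). With the counts of both genes summed, an alternative added after the data were seen, the rise was 1.18 in WT and 1.15 in KO, and the difference between responses turned from 0.10 to -0.03.

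Hyal2 (ENSMUSG00000010047, chromosome 9, 107567945 to 107572779, plus strand), the neighbouring gene for a hyaluronidase anchored at the cell surface, was the steadiest member by its range. It read 28.3, 29.1 and 27.2 CPM in WT control and 30.6, 28.1 and 29.9 CPM in WT senescent cells. In KO it read 31.2, 28.7 and 26.3 CPM in control and 29.1, 27.5 and 29.0 CPM in senescent cells. All groups overlapped, and 0 of the 5 comparisons passed in edgeR or at an unadjusted p under 0.05, nor in DESeq2 or limma-voom. The intervals of the log2 differences reached from -0.08 to 0.22 in WT and from -0.16 to 0.14 in KO.

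Cd44 (ENSMUSG00000005087, chromosome 2, 102811141 to 102901665, minus strand) was the most abundant member, with 12067 to 26068 counts per library. It read 628, 585 and 693 CPM in WT control and 607, 527 and 509 CPM in WT senescent cells. The KO libraries had 644, 496 and 518 CPM in control and 789.5, 683 and 879.6 CPM in senescent cells. The KO senescent libraries lay above those of KO control and WT senescent cells, while the WT groups overlapped. Cd44 rose 1.42-fold in KO (log2 0.51, SE 0.12, adjusted p = 0.00463) and the WT difference was -0.21 (SE 0.12, adjusted p = 0.164). The responses differed by 0.72 (SE 0.17, adjusted p = 0.0144). KO senescent cells held 1.43-fold more Cd44 than WT senescent cells (log2 0.52, SE 0.12, adjusted p = 0.0111), a pass that did not hold without KO senescent replicate 3 (0.43, adjusted p = 0.0524), the highest library. These are counts over the whole gene and cannot separate the splice forms of CD44.

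Tnfaip6 (ENSMUSG00000053475, chromosome 2, 52038009 to 52056686, plus strand) encodes TSG-6, which moves heavy chains of inter-alpha-inhibitor onto hyaluronan. It read 3.82, 3.46 and 3.65 CPM in WT control and 2.07, 1.88 and 1.43 CPM in WT senescent cells. For KO cells the values were 5.32, 5.52 and 4.33 CPM in control and 1.85, 2.37 and 1.52 CPM in senescent cells. Senescent libraries of both genotypes shared 1 low range, and KO control lay above WT control without overlap. Tnfaip6 fell by 1.01 on the log2 scale in WT (SE 0.21, adjusted p = 0.000322) and by 1.40 in KO (SE 0.21, adjusted p = 5.51e-06), and the difference between responses did not pass (-0.39, SE 0.29, adjusted p = 0.387). The WT value was -0.98 without WT control replicate 1 and -0.88 without WT senescent replicate 3, which passed but fell short of the fold threshold, as it did with upper-quartile factors (-0.93), library totals only (-0.85) and at least 1 CPM in 3 libraries (-0.99). The difference between control cells was 0.47 (SE 0.20, adjusted p = 0.122).

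Vcan (ENSMUSG00000021614, chromosome 13, 89655312 to 89742509, minus strand) encodes versican, a large proteoglycan whose head binds hyaluronan. It read 158, 164 and 173 CPM in WT control and 163, 162 and 158 CPM in WT senescent cells. In KO it read 261, 325 and 317 CPM in control and 236, 230 and 178 CPM in senescent cells. All 6 KO libraries lay above all 6 WT libraries, and within KO the senescent libraries lay below the controls. KO control cells held 1.82-fold more Vcan than WT control cells (log2 0.86, SE 0.10, adjusted p = 8.92e-05), and KO senescent cells 1.33-fold more than WT senescent cells (log2 0.41, SE 0.10, adjusted p = 0.00984). Vcan fell by 0.49 on the log2 scale in KO (SE 0.10, adjusted p = 0.00100), and the WT difference was -0.04 (95% interval -0.26 to 0.18, adjusted p = 0.791). The responses differed by -0.45 (SE 0.14, adjusted p = 0.0404). This pass did not hold without any 1 of the 6 WT replicates or without KO control replicate 2 or 3, where the value was -0.39 to -0.49 and adjusted p 0.0614 to 0.0936. The splice forms of Vcan are not separated in these counts.

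**Figure D2:**
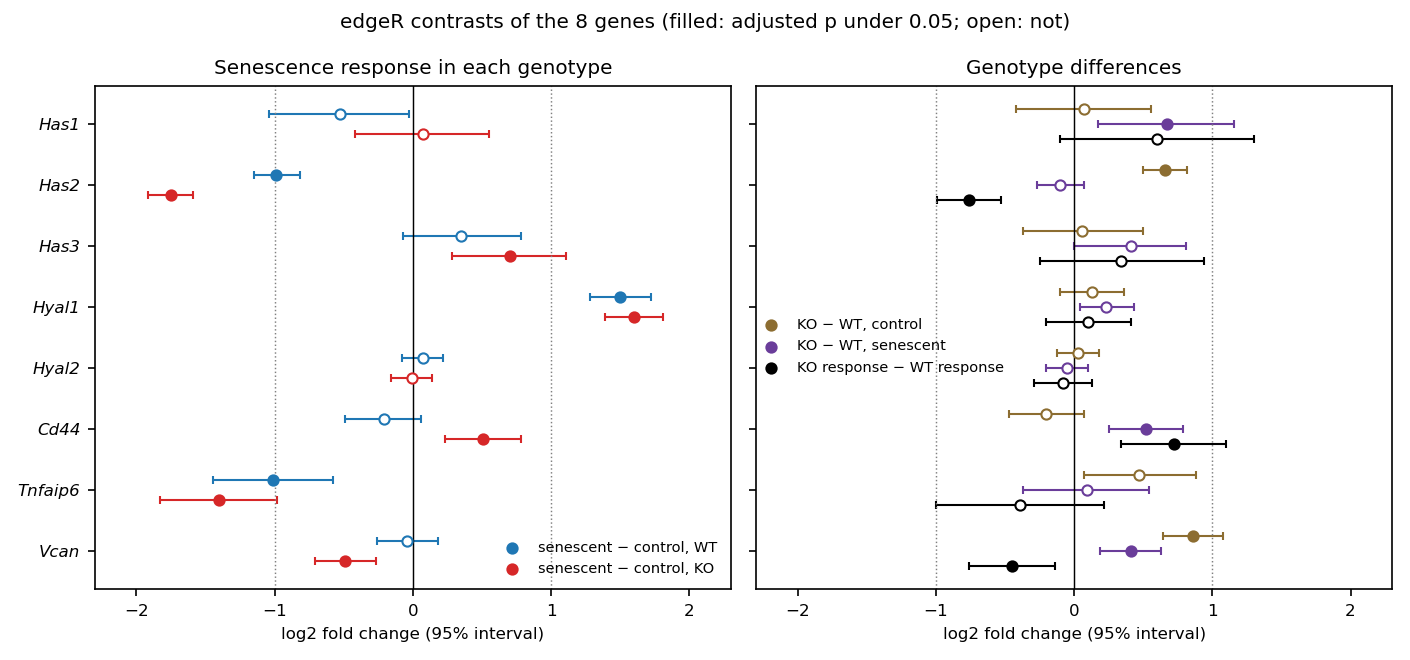
Log2 fold changes of the 8 genes with 95% intervals from edgeR, for senescent less control cells in each genotype (left) and for KO less WT and the difference between the responses (right), with filled points where adjusted p was under 0.05. Hyal1 lies at 1.50 and 1.60 and Tnfaip6 at -1.01 and -1.40 in both genotypes on the left, and Has2 at -0.76, Cd44 at 0.72 and Vcan at -0.45 are the filled black points on the right.

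Levels of different genes were compared per kb of merged exons. In both control groups the order was Cd44, Has2, Vcan, Hyal2, Tnfaip6, Hyal1, Has1 and Has3, from 93.8 ± 8.03 CPM per kb for Cd44 to 0.323 ± 0.0108 for Has3 in WT control cells (SD, n = 3). In both senescent groups Vcan stood above Has2 and Hyal1 above Tnfaip6, and the other places were kept. Neighbours in the order had separate library ranges but for Vcan and Has2 in WT senescent cells (11.1 ± 0.180 and 10.8 ± 1.06 CPM per kb), and for Tnfaip6 and Has1, and Has1 and Has3, in KO senescent cells. With the longest transcript as length, Tnfaip6 and Hyal1 changed places in WT control cells (2.13 and 2.24 CPM per kb). Since 50.83% of the exon bases of Hyal1 are shared with Naa80 and reads there cannot be assigned, the level of Hyal1 per kb, its place beside Tnfaip6 and every share or ratio built on it carry an error of unknown size.

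**Figure D3:**
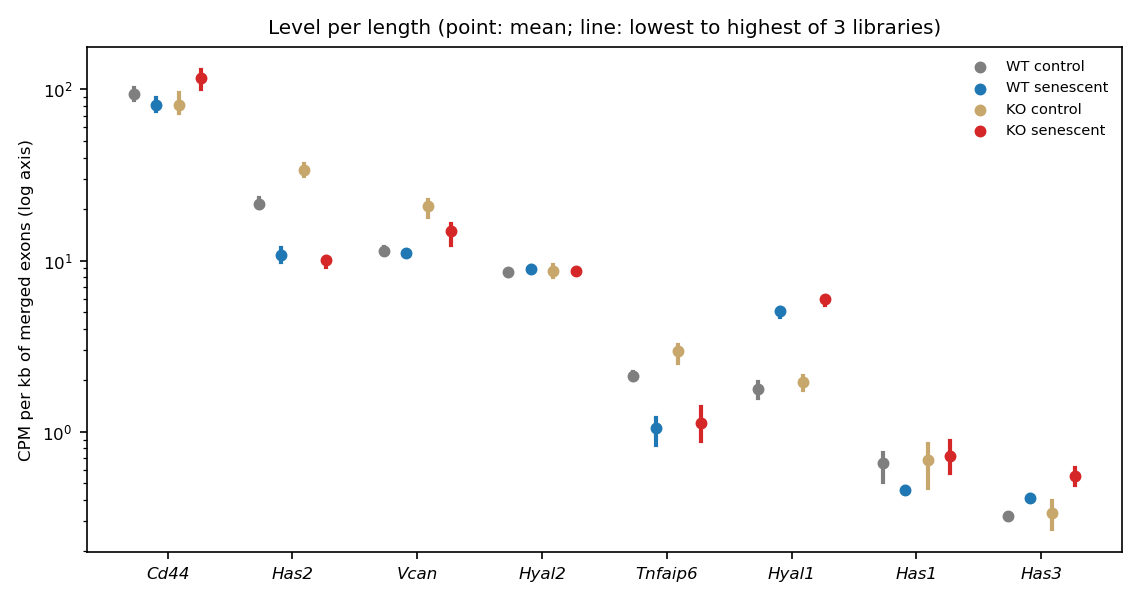
Level of each gene per kb of merged exons (log axis) in the 4 groups, with points for the mean of 3 libraries and lines from the lowest to the highest. Has2 and Tnfaip6 sit lower and Hyal1 sits higher in the senescent groups, and Has3 is the lowest member in every group.

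Has2 supplied most of the synthase mRNA in all 12 libraries. Per length it made up 95.6% ± 0.393 of the Has1, Has2 and Has3 sum in WT control, 92.5% ± 0.715 in WT senescent, 97.1% ± 0.376 in KO control and 88.8% ± 0.389 in KO senescent cells (SD, n = 3), with no overlap between control and senescent libraries of a genotype. Has1 and Has3 made up the remainder, and reached 6.33% and 4.86% in KO senescent cells. Hyal1 made up 17.3% ± 1.79 of the Hyal1 and Hyal2 sum in WT control, 36.0% ± 1.76 in WT senescent, 18.4% ± 2.19 in KO control and 40.6% ± 2.00 in KO senescent cells. The log2 ratio of the Has sum to the Hyal sum was 1.00, 1.22 and 1.12 in WT control and -0.19, -0.25 and -0.37 in WT senescent cells. It was 1.48, 1.85 and 1.80 in KO control and -0.27, -0.49 and -0.33 in KO senescent cells. The ratio was above 0 in every control and below 0 in every senescent library, the KO control libraries were the highest, and the senescent groups of both genotypes overlapped. These ratios compare mRNA levels and say nothing of enzyme activity or of hyaluronan itself, which was not measured.

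**Figure D4:**
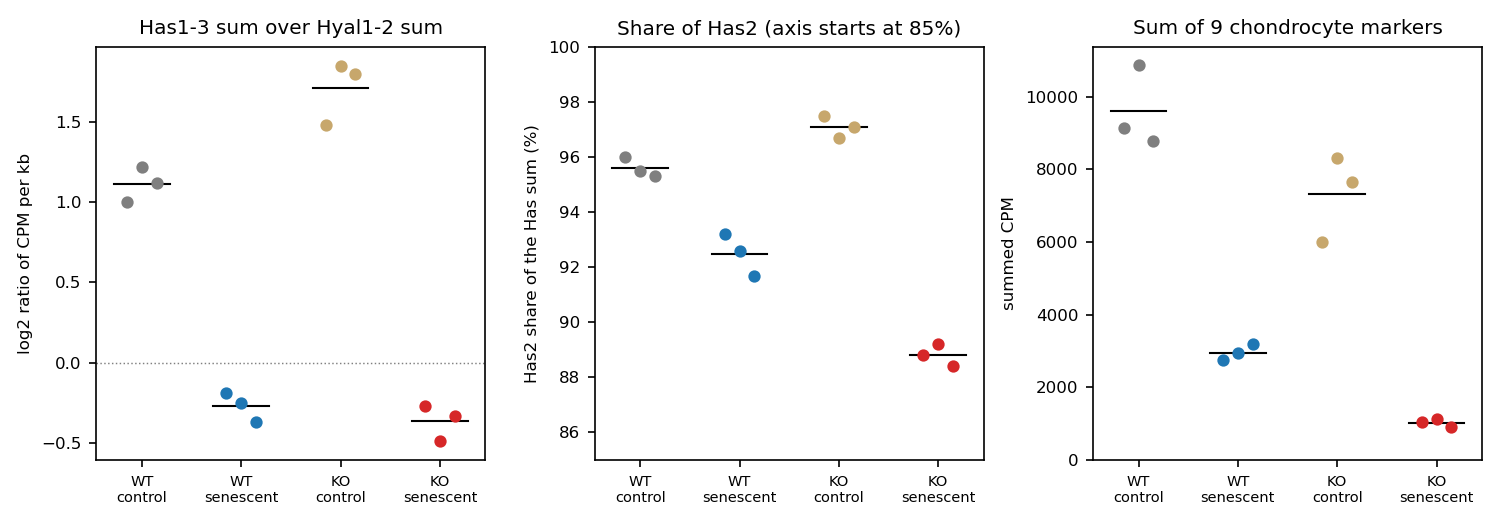
Left, log2 ratio of the summed Has to the summed Hyal level per kb. Middle, share of Has2 in the Has sum, in percent on an axis from 85%. Right, summed CPM of the 9 chondrocyte markers. Points are libraries and lines group means of 3. All 6 control libraries lie at 1.00 or more on the left and all 6 senescent libraries below 0, and the marker sum falls from 8787 to 10866 CPM in WT control to 915 to 1123 CPM in KO senescent cells.

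Of 52 other genes of hyaluronan biology in 7 lists, 43 could be tested. In WT, 13 passed higher and 21 lower, where 29.2% and 27.0% of all genes did, with 6 called higher and 6 lower, where 11.6% and 5.90% of all genes were called. In KO, 16 passed higher and 21 lower, where 28.5% and 28.6% of all genes did, with 10 called higher and 7 lower, where 11.2% and 7.58% of all genes were called. Called higher were also Hyal3 and Stab1, at 1 to 6 and 3 to 6 counts per control library, and, in KO, Ncan (0.712 CPM in KO senescent cells). Such rows passed the low-count filter through the senescent libraries where they are high. Their calls therefore carry no weight in these counts or in those of their lists below. The interaction passed for 11 with a positive and 12 with a negative sign, beside 9.24% and 11.7% of all genes. It was called for 2 and 4, beside 1.15% and 2.51% of all genes. Between controls, 2 were called higher and 0 lower (1.36% and 1.18% of all genes), and between senescent cells 1 higher and 4 lower (1.29% and 2.19%). The median log2 fold change of the 43 was -0.11 in each genotype, beside 0.02 in WT and 0.00 in KO over all genes. Genes of these lists that are named without a call were chosen after their values were seen.

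The precursor list, 7 enzymes that make the UDP-sugars, had no gene past the fold threshold. In WT 6 of 7 passed lower, beside 27.0% of all genes, and in KO 5 of 7, beside 28.6%. The median log2 fold change was -0.25 in both, beside 0.02 and 0.00 over all genes, and 0 of 7 passed higher in either. Ugdh, which makes UDP-glucuronic acid, averaged 518 ± 29.7 CPM in WT control and 321 ± 9.08 in WT senescent cells (SD, n = 3), a change of -0.69 (SE 0.07, adjusted p = 6.9e-08). In KO it averaged 450.0 ± 19.0 and 428 ± 53.9 CPM, a change of -0.07 (SE 0.07, adjusted p = 0.406), and the responses differed by 0.62 (SE 0.10, adjusted p = 0.000247). Ugp2, which makes UDP-glucose, went the other way, with -0.19 in WT, -0.60 in KO and a difference of -0.42 (SE 0.09, adjusted p = 0.00232).

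Of the other degrading and clearing enzymes, 6 of 10 were tested, and 4 passed higher and 2 lower in each genotype. The shares of all genes were 29.2% higher and 27.0% lower in WT, and 28.5% and 28.6% in KO. Cemip, a protein needed for cells to depolymerise hyaluronan, had 93.8 ± 7.11 CPM in WT control and 506 ± 24.1 in WT senescent cells, and 130.2 ± 7.39 and 382 ± 77.4 CPM in KO. It rose 5.39-fold in WT (log2 2.43, SE 0.13, adjusted p = 3.02e-08) and 2.93-fold in KO (log2 1.55, SE 0.13, adjusted p = 1.12e-06), and the response was smaller in KO by 0.88 (log2 difference -0.88, SE 0.18, adjusted p = 0.00543). Hexa, which encodes a lysosomal hexosaminidase subunit, passed higher by 0.97 in WT and by 0.69 in KO. Cemip2 and Gusb passed lower in both genotypes, by 0.24 to 0.61 in size. Hyal3, which shares 4.21% of the exon bases of Hyal1, was called higher in both genotypes at 1 to 28 counts per library.

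Among 7 other receptors, 4 passed higher and 1 lower in WT, beside 29.2% and 27.0% of all genes. In KO 5 passed higher and 2 lower, beside 28.5% and 28.6%. Hmmr, whose product RHAMM also acts on the mitotic spindle, fell from 79.4 ± 12.8 to 12.0 ± 0.567 CPM in WT (log2 -2.72, SE 0.10, adjusted p = 1.32e-13) and from 74.8 ± 4.54 to 7.03 ± 0.461 CPM in KO (log2 -3.41, SE 0.11, adjusted p = 1.21e-14). The proliferation marker Mki67 moved beside it, with log2 fold changes of -3.70 in WT and -4.46 in KO. Tlr4, an innate immune receptor that responds to hyaluronan fragments, rose by 0.69 in WT (SE 0.07, adjusted p = 2.85e-08) and was called in KO at 1.02 (SE 0.07, adjusted p = 6.5e-11), with a difference of 0.33 (SE 0.10, adjusted p = 0.0224). Of the called receptors, Lyve1 and Stab1 in both genotypes and Stab2 in KO averaged under 1 CPM over the 12 libraries, with group means of up to 1.41 CPM.

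Of the link proteins and other lecticans, which dock on hyaluronan beside versican, 6 of 7 were tested. In WT 0 passed higher and 4 lower, beside 29.2% and 27.0% of all genes. In KO 1 passed higher (Ncan) and 2 lower, beside 28.5% and 28.6%. The median log2 fold change was -0.88 in WT and 0.06 in KO, beside 0.02 and 0.00 over all genes. Acan and Hapln1 fell in both genotypes and further in KO. Acan, the aggrecan of cartilage, averaged 2044 ± 229 CPM in WT control, 429.7 ± 17.2 in WT senescent, 2075 ± 252 in KO control and 147 ± 16.5 in KO senescent cells (SD, n = 3). It fell by 2.25 on the log2 scale in WT (SE 0.11, adjusted p = 4.45e-09) and by 3.82 in KO (SE 0.12, adjusted p = 4.89e-11), with a difference of -1.57 (SE 0.15, adjusted p = 5.13e-05). Hapln1, the cartilage link protein, fell by 1.22 in WT and 2.48 in KO, with a difference of -1.26 (SE 0.23, adjusted p = 0.00444). Bcan, at 1.76 to 3.60 CPM on average, was called lower in WT (-1.04, SE 0.24, adjusted p = 0.000803), read 0.46 in KO (adjusted p = 0.102) and had a positive interaction (1.49, SE 0.33, adjusted p = 0.00305). Acan is itself 1 of the 9 chondrocyte markers, and 8 of the 8 tested markers of that list had a negative interaction that passed, beside 11.7% of all genes. The part of cartilage cells in these differences was not tested.

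Of the genes that act with TSG-6, Itih2, which encodes a heavy chain, rose from 20.3 ± 0.440 to 51.6 ± 0.859 CPM in WT (log2 1.34, SE 0.08, adjusted p = 6.16e-12) and from 20.0 ± 1.23 to 43.5 ± 5.10 CPM in KO (log2 1.12, SE 0.08, adjusted p = 9.99e-11). Itih5 passed higher in both and was called in KO (1.55, SE 0.22, adjusted p = 2.93e-06). Ptx3, a pentraxin that holds heavy chains together, passed lower in both, by 0.84 in WT and 0.99 in KO. The other 4 genes of that list were too low to test.

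Versican-cleaving ADAMTS proteases showed opposite signs between genotypes for some members. Of the 6, all tested, 2 passed higher and 1 lower in WT, beside 29.2% and 27.0% of all genes. In KO 1 passed higher and 4 lower, beside 28.5% and 28.6%. Adamts15 averaged 0.902 ± 0.206 CPM in WT control and 2.45 ± 0.313 in WT senescent cells, but 1.98 ± 0.565 and 0.698 ± 0.229 CPM in KO. It was called higher in WT (1.44, SE 0.30, adjusted p = 0.000296) and lower in KO (-1.50, SE 0.30, adjusted p = 0.000253), with a difference of -2.94 (SE 0.43, adjusted p = 8.18e-05). Adamts4 passed higher in WT (0.42, SE 0.09, adjusted p = 0.000554) and lower in KO (-0.31, SE 0.08, adjusted p = 0.00332), with a difference of -0.73 (SE 0.12, adjusted p = 0.000351). Adamts9 read 0.36 in WT (adjusted p = 0.0603) and fell by 1.03 in KO (SE 0.16, adjusted p = 4.67e-05), with a difference of -1.40 (SE 0.23, adjusted p = 0.000507). Adamts4 was higher in KO control than in WT control cells, 33.0 ± 2.98 against 14.4 ± 0.671 CPM (log2 1.20, SE 0.09, adjusted p = 7.06e-09). The more abundant Adamts1 and Adamts5 were lower in the same comparison, with means of 138 against 224 CPM for Adamts1 (log2 -0.70, SE 0.10, adjusted p = 0.000592) and of 142 against 236 CPM for Adamts5 (log2 -0.73, SE 0.17, adjusted p = 0.0221). Adamts20 was called lower in both genotypes at 1.29 CPM on average over the 12 libraries, and with senescence Adamts1 and Adamts5 read 0.02 and 0.01 in WT and 0.29 and -0.12 in KO, where Adamts1 alone passed (adjusted p = 0.0273).

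Of 8 partners and sheddases of CD44, 1 passed higher and 6 lower in senescent WT cells, beside 29.2% and 27.0% of all genes, and 3 higher and 5 lower in KO, beside 28.5% and 28.6%. The list's median was -0.32 on the log2 scale for WT and -0.39 for KO, beside 0.02 and 0.00 over all genes. Ezr, the gene of the membrane linker ezrin, fell by 1.60 in WT (SE 0.07, adjusted p = 3.73e-13) and 1.29 in KO (SE 0.07, adjusted p = 9.04e-12). Msn, for the related moesin, passed in opposite directions, -0.17 in WT and 0.38 in KO, with a difference of 0.55 (SE 0.09, adjusted p = 0.000308). Mmp9, a protease that docks on CD44, averaged 1.59 ± 0.315 CPM in WT control, 1.86 ± 0.488 in WT senescent, 1.34 ± 0.124 in KO control and 4.41 ± 0.730 in KO senescent libraries and was called in KO (1.71, SE 0.24, adjusted p = 3.16e-06) and in the interaction (1.48, SE 0.35, adjusted p = 0.00440). Spp1, the gene of the CD44 ligand osteopontin, rose by 0.49 in each genotype.

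**Figure D5:**
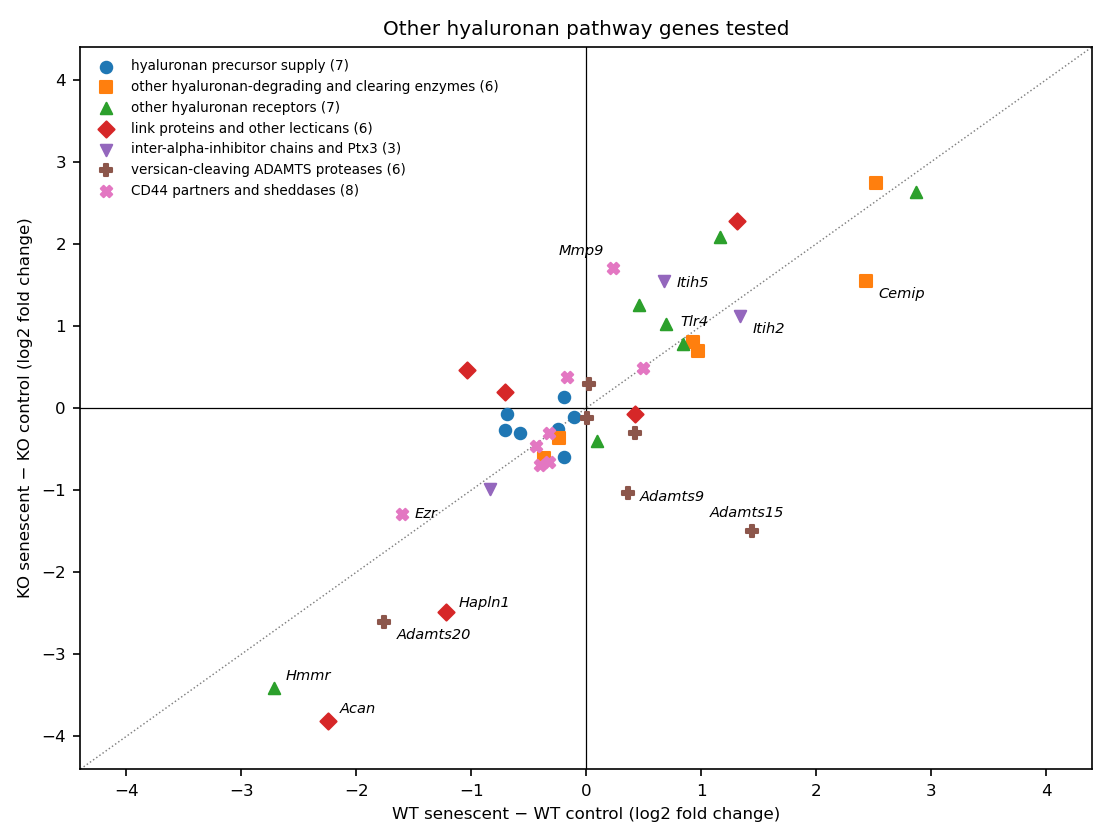
Log2 fold change of senescent less control cells in WT (horizontal) and KO (vertical) for the 43 pathway genes tested, with a symbol for each list and a dotted line of equal change; named points are called genes that averaged 1 CPM or more. Acan, Hapln1 and Hmmr lie below the line at the lower left, Cemip below it at the right, and Adamts15 has opposite signs.

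Over the 12 libraries, Has2 and Tnfaip6 had a Pearson r of 0.94 on log2 CPM and Has2 and Hyal1 of -0.91. Both values describe libraries that fall into 4 groups of 3 and share the group differences given above. Each member was also compared with 10944 or 10945 genes of at least 5 CPM, and the values below are the highest of these. They too describe libraries in 4 groups of 3 and share the group differences. Elovl6 was the nearest to Has2 (r = 0.991). The nearest to Hyal1 were Ddit3 (0.996) and Ccng1 (0.994), to Tnfaip6 Cc2d1b (0.977) and Rell1 (0.973), to Cd44 Gnl3 (0.968) and Hmga2 (0.966), and to Vcan Ssc5d (0.966) and Olfml2b (0.951). The nearest to Has3 were Rnf146 and Golga4 (both 0.946). Has1 and Hyal2 had lower values with their nearest genes, Ints13 (0.871) and Sec23a (0.825) for Has1 and Lamtor1 (0.834) and Tmem222 (0.686) for Hyal2.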

How the data were processed

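Poly(A) RNA was prepared with the NEBNext Ultra II kit for paired-end sequencing. The authors trimmed reads with Trimmomatic 0.36, mapped them with STAR 2.5.2b to GRCm38 and counted uniquely mapped exonic reads per gene with featureCounts. The deposited values were these raw counts in 2 tables, 1 for each genotype. The annotation release and the use of strand are not given in the sources used here.

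Libraries were grouped by their labels. Counts were scaled by TMM (the trimmed mean of M-values, which corrects library totals for composition), filtered with filterByExpr and fitted in edgeR 4.0.16 (R 4.3.3) over all 12 libraries with a mean for each of 4 groups. Robust quasi-likelihood F-tests were adjusted (Benjamini-Hochberg) over 17416 genes for 5 comparisons, and all adjusted p given come from this test unless another tool is named. The SE was the absolute log2 fold change over the square root of F. Gene positions and exon lengths came from a GENCODE annotation of GRCm38. The step was tested on simulated counts.

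The members and gene lists were chosen with earlier results of these data known. Named were the 8 members, up to 3 called genes of each list and comparison with the largest change and a mean of at least 1 CPM, and the 2 genes most correlated with each member (log2 CPM, prior count 2), of which 1 is not reported here. Same-numbered libraries did not deviate together (18 pairs, r of -0.125 to 0.127, 2 over 0.1). Alternatives used other normalizations, filters, tests (DESeq2 1.42.0, limma-voom 3.58.1), lengths and a replicate block, and left out each library in turn.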

Additional observations from a re-analysis of the deposited data

Results flagged for a closer look

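A test of the difference between the senescence responses of the genotypes passed for 3 members. The KO response less the WT response was negative for Has2 (-0.76 on the log2 scale, adjusted p = 0.000124) and Vcan (-0.45, adjusted p = 0.0404). It was positive for Cd44 (0.72, adjusted p = 0.0144). Has2 fell in both genotypes and further in KO, whereas the fall of Vcan passed in KO alone. Has2 and Cd44 passed without any 1 of the 12 libraries (adjusted p up to 0.000693 and 0.0418), and Vcan passed in 4 of those 12 fits. With 3 libraries in a group, single libraries were not tested as outliers.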

How the results depend on the processing

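Called in WT were 2 members, but 3 with DESeq2 size factors, the DESeq2 Wald test, only the groups compared or no fold threshold, 1 with upper-quartile factors, library totals only, at least 1 CPM in 3 libraries or glmTreat, and 1 to 3 as each library was left out (1 without WT senescent replicate 3), as Has2 (-1.07 to -0.82 over these fits) and Tnfaip6 (-1.13 to -0.85) lay on either side of the fold threshold. Without that threshold the other counts were 6 in KO, 3 in the interaction, 2 between controls and 3 between senescent cells. Over all genes, 3039 of 17416 were called in WT, but 3028 with DESeq2 size factors, 2969 with the DESeq2 Wald test and 2733 of 16474 with only the groups compared. They were 3107 with upper-quartile factors, 3262 with library totals only and 2375 of 14637 with at least 1 CPM in 3 libraries. With the longest transcript as length, the log2 Has to Hyal ratio was 0.94 in WT control, -0.46 in WT senescent and -0.56 in KO senescent cells, and the Has2 share was 94.7% and 91.3% in control and senescent WT cells and 96.5% and 87.0% in those of the KO.

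The direction turned only for differences that did not pass. Hyal2 in KO was -0.01, but 0.01 with DESeq2 size factors or the DESeq2 test, 0.07 with upper-quartile factors, 0.14 with library totals only, 0.02 with at least 1 CPM in 3 libraries, 0.00 with only the groups compared, and -0.08 to 0.05 as each library was left out. Vcan in WT was 0.05 with upper-quartile factors and 0.13 with library totals only. The difference of Hyal1 between responses was -0.03 with Naa80 summed in. As each library was left out, Has1 ranged from -0.15 to 0.25 in KO (-0.15 without KO control replicate 1, -0.11 without KO senescent replicate 3) and from -0.12 to 0.28 between controls (-0.09 without WT control replicate 1, -0.12 without KO control replicate 2). In the same fits Has3 ranged from -0.07 to 0.20 and Hyal2 from -0.03 to 0.09 between controls, and Tnfaip6 from -0.10 to 0.23 between senescent cells (-0.05 without WT senescent replicate 3).

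Vcan's interaction did not pass with upper-quartile factors (adjusted p = 0.0609), limma-voom (0.0527) or the replicate block (-0.45, adjusted p = 0.0629; -0.46 and 0.0620 within genotypes). The block changed no other call of a member. Has1 between senescent cells did not pass with upper-quartile factors (0.0535), library totals only (0.0601) or limma-voom (0.0619). Passes were gained by Has1 (-0.57, adjusted p = 0.0444) and Cd44 (-0.24, adjusted p = 0.0194) in WT with only the groups compared, by Hyal1 between senescent cells with that fit, DESeq2 or limma-voom (0.0336 to 0.0457), and by Has3 (0.52, adjusted p = 0.0335) and Hyal2 (0.23, adjusted p = 0.00944) in WT with library totals only. That scaling moved the median of all genes by 0.17 in WT and 0.15 in KO, and the called genes from 2012 higher and 1027 lower to 2505 and 757 in WT and from 1957 and 1321 to 2322 and 1027 in KO. The causes were not tested. Has1, Has3 and Tnfaip6, at 37 to 164 counts per library, are the members whose precision depth limits most.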
